A study of Mus musculus with 16 samples.

Results

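The 10 genes of elastic fibres and microfibrils (Eln, Fbn1, Fbln1, Fbln2, Fbln5, Mfap2, Mfap4, Mfap5, Lox and Ltbp1) were followed over 4 groups of mouse cerebellum. They were picked because, as a set, they lay lower in NR-treated than in vehicle-treated wild type mice, so their differences in that comparison are a description and carry no test. A probe was a member where its accession belonged to 1 of the 10 genes (of 22911 named genes on the array), which gave 14 of 56605 non-control probes. Of these, 12 probes of 9 genes passed the filter on dim and incomplete probes, among 37253 probes and 16737 named genes that passed it. The filter left out the Fbln1 probe, whose spot on 1 array carries an outlier mark, and the dimmer of the 2 Lox probes. Fbln1 is given below from the 15 arrays with a value.

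RNA from cerebellum was hybridised to 16 Agilent arrays of 1 colour. Wild type mice gave 4 arrays with vehicle (WT veh) and 4 with NR (WT NR), and Atm knockout mice likewise gave 4 (Atm-/- veh) and 4 (Atm-/- NR). All mice came from the strain B6;129S4-Atmtm1Bal/J. The Atm-/- mice lack the kinase that is lost in ataxia telangiectasia. Every cell of the animal carries the targeted allele, so no single cell type carries the loss alone. NR is nicotinamide riboside, a precursor of NAD+, given in drinking water at 3.5 mg/ml (12 mM) for 2 months from an age of 6 weeks. The veh groups drank water, and all mice were 3.5 months old. Levels below are log2 of the background-subtracted spot intensity after quantile normalization, differences are between group means on that scale, and a level of one probe is not set against that of another, because probes differ in brightness for the same amount of RNA.

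Facts of the arrays bear on every comparison. Between 34945 and 42559 probes were well above background on an array, and the Atm-/- NR arrays (34945 to 37817) lay below the Atm-/- veh arrays (39134 to 41905). All WT arrays were on 1 slide and all Atm-/- arrays on another, so slide and genotype cannot be told apart, and on both slides veh and NR filled separate rows, so treatment and row cannot be told apart. The labels give all mice as male, but Atm-/- veh 3, Atm-/- NR 4, and both WT NR 1 and WT NR 4 showed Xist and no signal of Y-linked genes. The main results of the members and pathway genes are also given without these 4 arrays, while those of the marker lists are not. WT veh 4 stood apart in markers of the choroid plexus: the level of 6 such genes was 4.86 there and -0.94 to 0.65 on the other 15 arrays. The same array was the lowest of 16 for markers of granule cells (-0.46), Purkinje cells (-0.44) and Bergmann glia (-0.17) and the highest for microglia (0.79) and endothelium (0.32), and the part of these shifts in the members' values was not tested. As a check of the tissue label, Pcp2 of Purkinje cells read 17.84 to 18.44 on the log2 scale on every array. The dimmer probe for Atm was lower in Atm-/- veh than in WT veh by 0.87 (limma, adjusted p = 0.00032), and the brighter probe by 0.35, which did not pass the threshold (adjusted p = 0.221).

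Elastic fibres give arteries, skin and lung their recoil. Their core is elastin, the protein that Eln encodes, cross-linked by lysyl oxidase and laid on a scaffold of fibrillin microfibrils, to which fibulins and microfibril-associated proteins bind. Microfibrils also hold latent TGF-beta through the latent TGF-beta binding proteins. In brain these genes are known mainly from the walls of arteries and from fibroblasts of the meninges and around vessels, which are few beside the neurons and glia of the cerebellum. In bulk RNA such as this, fewer cells of a type and less RNA per cell cannot be told apart.

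Promoter windows were held in the RefSeq table (GRCm38.p6) for 6 of the 10 members: Fbn1, Fbln1, Fbln2, Fbln5, Mfap2 and Ltbp1. The 250 bases before the start are printed, 5′ to 3′ on the strand of the gene, for Fbn1 and Fbln2, the pair whose levels moved together most closely from array to array, and for Fbln5, the member with the greatest difference between Atm-/- NR and Atm-/- veh. Capitals mark the GC box GGGCGG or its reverse complement CCGCCC. The windows are chr2:125506439-125506688 (minus strand) for Fbn1, chr6:91212514-91212763 (plus strand) for Fbln2 and chr12:101819120-101819369 (minus strand) for Fbln5.
Fbn1: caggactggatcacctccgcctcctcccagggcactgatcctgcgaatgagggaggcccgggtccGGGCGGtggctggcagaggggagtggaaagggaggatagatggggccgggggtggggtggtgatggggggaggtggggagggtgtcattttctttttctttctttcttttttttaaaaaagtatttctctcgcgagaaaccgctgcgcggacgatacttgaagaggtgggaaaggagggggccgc
Fbln2: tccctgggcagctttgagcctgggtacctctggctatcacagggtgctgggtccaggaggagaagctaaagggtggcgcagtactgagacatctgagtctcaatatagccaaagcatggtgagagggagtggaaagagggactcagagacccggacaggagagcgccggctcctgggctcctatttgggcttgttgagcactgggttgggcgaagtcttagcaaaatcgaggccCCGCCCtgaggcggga
Fbln5: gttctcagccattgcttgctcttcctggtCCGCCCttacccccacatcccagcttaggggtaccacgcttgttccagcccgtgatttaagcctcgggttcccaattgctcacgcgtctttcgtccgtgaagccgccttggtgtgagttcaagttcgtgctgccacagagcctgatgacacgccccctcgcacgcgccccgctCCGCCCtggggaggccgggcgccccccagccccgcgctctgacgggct

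The GC box was present in the first listed window of 4 of the 6 members (Fbn1, Fbln2, Fbln5 and Mfap2), against 32.7% of all 32851 windows of the same length. CCAAT, searched on both strands like the other motifs, was in 2 of 6 (Fbln5 and Ltbp1), against 33.8% of all windows. TATAAA (12.4% of all windows) and TGANTCA (6.75%) were in 0 of 6. The share of G and C ran from 46.4% (Fbln1) to 68.8% (Mfap2), beside a median of 52.4% over all windows. These are matches of letters in a window and were not tested as sites.

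With NR in Atm-/- mice, no member probe passed the test. Of 37253 probes, limma called 9.04% in Atm-/- NR against Atm-/- veh at an adjusted p under 0.05 (4.48% lower and 4.56% higher), and 0 of the 12 member probes. At an unadjusted p under 0.05 the share was 27.3% of all probes and again 0 of 12 members. The methods' t-test, read at an unadjusted p of at most 0.05, also called 0 of 12. The other limits of the study's rule, such as those on z-ratio and false discovery rate, were not applied. The groups did not overlap for 20.2% of all probes and for 0 of 12 member probes. By probe, 8 of 12 lay below 0 (50.1% of all probes did). By gene, 6 of 9 members lay below 0 and 3 above, with a median difference of -0.13 beside 0.04 over all named genes. The median was -0.04 without Atm-/- veh 3, and 0.15 without the 4 arrays that lacked Y-linked signal. Members with intervals (95%) that reach beyond 1 on the log2 scale in some direction were Eln, Fbn1, Fbln5, Mfap5 and Lox, so a difference of that size lies within their error with 4 arrays a group.

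With NR in wild type mice, where the set was chosen, all 12 probes and all 9 genes lay below 0, with a median of -0.30 beside -0.01 over all named genes. The share of all probes below 0 was 53.2%. Since the members were picked on these same arrays, their count says nothing beyond the choice. The 12 probes include the dimmer Fbn1 probe, which passed the filter through the vehicle groups alone. No probe of the 37253 was called there by limma (0%, with 7.62% at an unadjusted p under 0.05), and none of the 12 member probes separated the groups, beside 2.49% of all probes with every WT NR array below every WT veh array. The median rested in part on WT veh 4: without it, the median was -0.13 and 7 of 9 genes lay below 0, Fbln2 (0.05) and Mfap4 (0.04) being above. Without the 4 arrays lacking Y-linked signal it was -0.12.

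**Figure D1:**
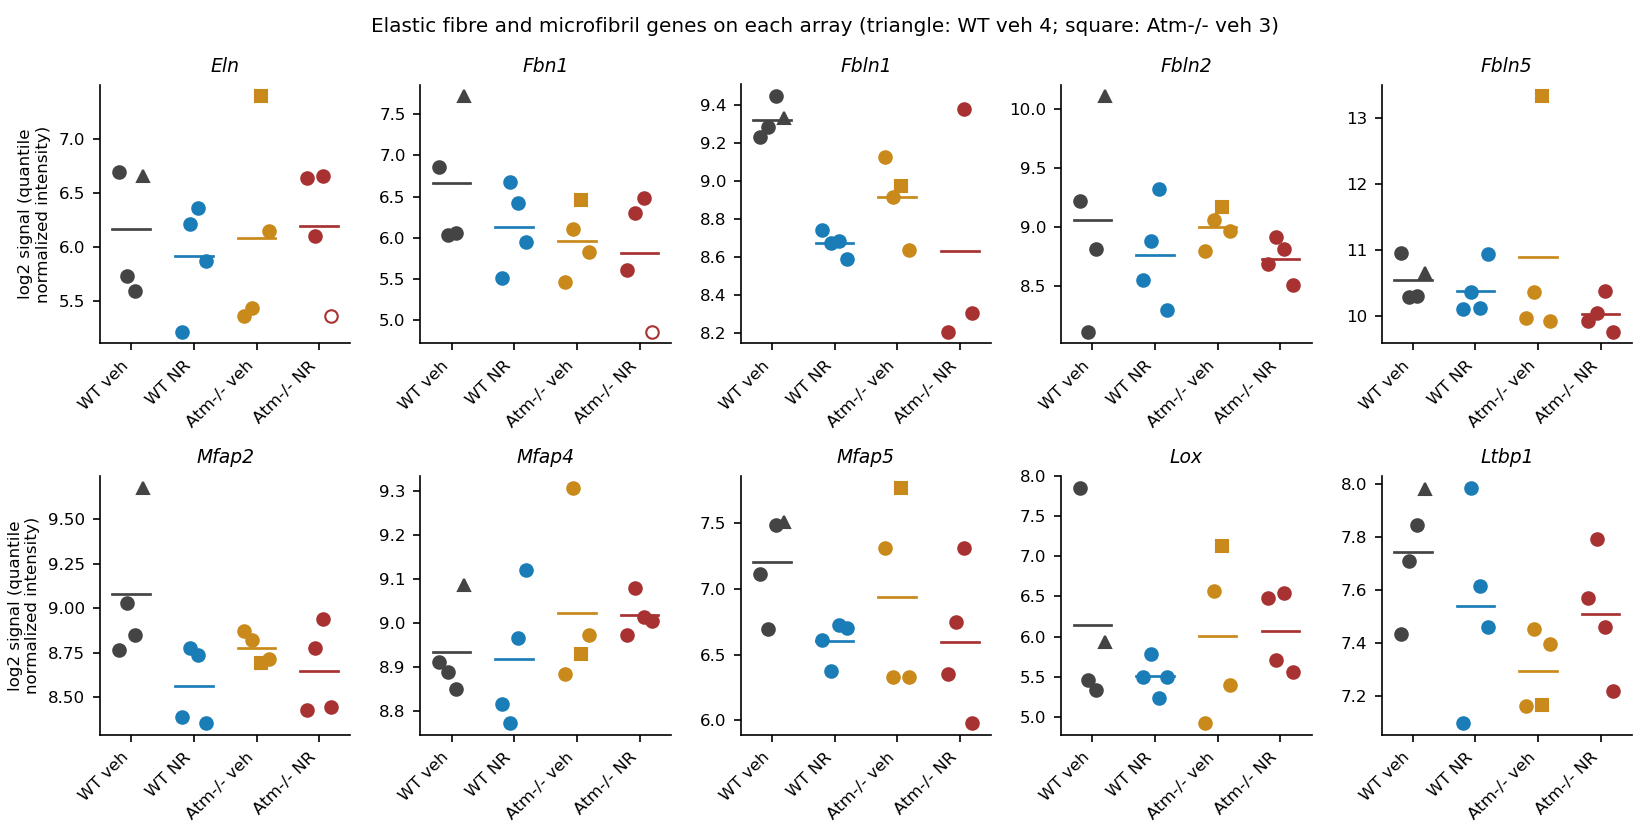
Log2 signal (vertical axes, quantile normalized intensity) of each member on each array, by group, for the brighter or only probe; lines are group means, open circles are arrays where the probe was not well above background, triangles WT veh 4 and squares Atm-/- veh 3. The Fbln1 arrays of WT NR (8.59 to 8.74) lie below those of WT veh (9.23 to 9.45), and Atm-/- veh 3 stands at 13.33 for Fbln5.

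The comparisons of Atm-/- with WT share arrays with the wild type comparison and are likewise given without tests. In Atm-/- veh against WT veh, 9 of 12 probes lay below 0 (50.7% of all probes did), with a median over genes of -0.14 beside -0.03 over all named genes. Fbn1 (-0.71) and Ltbp1 (-0.45) were furthest below, and Fbln5 (0.35) and Mfap4 (0.09) were above. Single arrays decided several of these: without Atm-/- veh 3, Fbln5 was at -0.47, without WT veh 4, Fbn1 was at -0.35 and Fbln2 went from -0.07 to 0.28, and without WT veh 1, Lox went from -0.14 to 0.43. In Atm-/- NR against WT NR, 6 of 12 lay below 0 (49.7% of all probes), with a median of -0.01, from -0.36 for Fbln5 to 0.57 for Lox. WT veh was the group with the highest mean for Fbn1, Fbln1 (over the arrays with a value), Fbln2, Mfap2, Mfap5, Lox and Ltbp1. Over single arrays, WT veh 4 was the highest for Fbn1, Fbln2 and Mfap2, Atm-/- veh 3 for Eln, Fbln5 and Mfap5, and WT veh 1 for Lox, by the brighter or only probe.

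Eln encodes tropoelastin, the soluble unit of elastin. The brighter Eln probe read 6.69, 5.73, 5.59 and 6.66 in WT veh and 5.22, 6.21, 6.36 and 5.87 in WT NR. In Atm-/- veh it read 5.36, 5.44, 7.39 and 6.14, and in Atm-/- NR 6.64, 6.10, 6.65 and 5.36, the last not well above background. The highest of the 16 was Atm-/- veh 3, and every group overlapped every other. The difference between Atm-/- NR and Atm-/- veh was 0.10 ± 0.45 (± SE, limma, adjusted p = 0.907), and it was 0.54 (adjusted p = 0.420) without Atm-/- veh 3. With only arrays that had Y-linked signal it was 0.81 (limma, adjusted p = 0.180). The dimmer Eln probe went the other way, by -0.17 ± 0.22 (adjusted p = 0.660), and in wild type mice the probes differed by -0.25 and -0.08 with NR. The first of these was -0.02 without WT NR 1, -0.09 without WT veh 4 and 0.12 with only arrays that had Y-linked signal.

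Fbn1 encodes fibrillin-1, the rod from which microfibrils are built. Its brighter probe read 6.86, 6.03, 6.06 and 7.72 in WT veh and 5.50, 6.68, 6.42 and 5.94 in WT NR. Among Atm-/- mice it read 5.46, 6.10, 6.46 and 5.82 with vehicle and 5.61, 6.30, 6.49 and 4.86 with NR, where Atm-/- NR 4 was not well above background. WT veh 4 was the highest array and Atm-/- NR 4 the lowest. Means were 6.67 ± 0.80 (SD, n = 4) in WT veh and 6.14 ± 0.52 in WT NR, beside 5.96 ± 0.42 and 5.81 ± 0.74 in the vehicle and NR groups of Atm-/- mice, and the ranges of all 4 groups overlapped. With NR the difference was -0.15 ± 0.42 in Atm-/- mice (SE; limma, adjusted p = 0.853), and -0.53 in wild type mice, which came to -0.18 without WT veh 4. The dimmer Fbn1 probe, well above background on 12 of 16 arrays, gave -0.04 (limma, adjusted p = 0.970) and -0.70. The arrays where it was not (WT NR 1, WT NR 4, Atm-/- NR 3 and Atm-/- NR 4) were all NR arrays. It thus passed the filter through the vehicle groups alone, and its differences with NR rest in part on readings near background.

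Fibulins bridge elastin and microfibrils. Fbln1 encodes a fibulin found in elastic fibres and basement membranes, and its probe was the one member whose WT groups did not overlap. It read 9.23, 9.28, 9.45 and 9.33 in WT veh, 8.74, 8.68, 8.68 and 8.59 in WT NR. For the Atm-/- vehicle group the values were 9.12, 8.92, 8.98 and 8.64. In Atm-/- NR it read 8.21, 9.38 and 8.31 on arrays 1, 3 and 4, which straddled the Atm-/- veh values, and the outlier-marked spot on array 2 read 11.85. Every WT veh array lay above every WT NR and every Atm-/- veh array, with mean differences of -0.65 and -0.41 (such separation downward was seen for 2.49% and 3.45% of all probes). The set was picked on the WT arrays, and both comparisons use WT veh. These separations are therefore a description, and the shares beside them are no test. The difference between Atm-/- NR and Atm-/- veh over 15 arrays was -0.28 ± 0.22 (limma, adjusted p = 0.433). That spot turned the direction: with it kept, the difference was 0.52 ± 0.56 (adjusted p = 0.586) and the mean of Atm-/- NR (9.44) lay above that of WT veh (9.32).

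Fbln2 encodes a fibulin that binds fibrillin and elastin in vessel walls. Its levels ran from 8.11 to 10.11 in WT veh and from 8.30 to 9.32 in WT NR. Atm-/- veh held a narrower range, 8.79 to 9.16, and Atm-/- NR read 8.50 to 8.91. WT veh 4 was again the highest array, and WT veh 2 the lowest, so that the widest spread lay within WT veh (SD 0.83, beside 0.16 and 0.18 in the Atm-/- groups). NR gave -0.27 ± 0.32 in Atm-/- mice (adjusted p = 0.629, limma).

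Fbln5 encodes a fibulin that guides the assembly of elastin onto microfibrils. It read 10.96, 10.29, 10.30 and 10.65 in WT veh and 10.11, 10.37, 10.12 and 10.95 in WT NR. Vehicle-treated Atm-/- mice read 9.97, 10.36, 13.33 and 9.92, and NR-treated ones 9.93, 10.05, 10.39 and 9.77. Apart from Atm-/- veh 3, the 15 arrays lay between 9.77 and 10.96. The difference with NR in Atm-/- mice, -0.86 ± 0.57 or 1.82-fold lower, was the greatest of the members and did not pass the test (limma, adjusted p = 0.346). It rested on that array, being -0.05 (adjusted p = 0.918) without it.

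Mfap2, Mfap4 and Mfap5 encode microfibril-associated proteins: those of Mfap2 and Mfap5 are small glycoproteins that bind fibrillin, and that of Mfap4 binds elastin and collagen. The brighter Mfap2 probe read 8.76, 9.03, 8.85 and 9.68 in WT veh, and 8.39, 8.78, 8.74 and 8.35 in WT NR. In Atm-/- veh it read 8.87, 8.82, 8.69 and 8.71, the tightest of the groups, and in Atm-/- NR 8.43, 8.78, 8.94 and 8.45. In wild type mice the groups met only between WT veh 1 (8.76) and WT NR 2 (8.78), and the difference was -0.52, or -0.32 without WT veh 4. With NR in Atm-/- mice it was -0.13 ± 0.18 (limma, adjusted p = 0.694). The dimmer Mfap2 probe gave -0.57 and 0.26 (adjusted p = 0.632), and its highest array was WT veh 2 (7.45) rather than WT veh 4.

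Mfap5 read 7.11, 6.69, 7.49 and 7.51 in WT veh and 6.62, 6.38, 6.72 and 6.71 in WT NR. The Atm-/- groups spread wider, at 7.31, 6.33, 7.77 and 6.33 with vehicle and 6.35, 6.75, 7.31 and 5.98 with NR. WT NR overlapped WT veh only through WT veh 2, at a mean difference of -0.60 that was -0.49 without WT veh 4, and the Atm-/- difference was -0.34 ± 0.33 (limma, adjusted p = 0.546). Mfap4 was the steadiest member: its 16 values ran from 8.77 to 9.31 and its 4 group means from 8.92 to 9.02. The differences of Mfap4 with NR were -0.02 in wild type and -0.01 ± 0.10 in Atm-/- mice (limma, adjusted p = 0.981), with an interval (95%) from -0.22 to 0.21.

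Lox encodes lysyl oxidase, which makes the cross-links of elastin and collagen. The brighter Lox probe read 7.86, 5.46, 5.33 and 5.93 in WT veh and 5.50, 5.79, 5.23 and 5.50 in WT NR. Atm-/- veh gave 4.92, 6.57, 7.13 and 5.40, and Atm-/- NR 6.48, 5.71, 6.54 and 5.56. WT veh 1 was far above the other WT arrays, and without it the wild type difference of -0.64 became -0.07. In Atm-/- mice NR gave 0.07 ± 0.54 (limma, adjusted p = 0.955). The dimmer Lox probe, not kept for the fit, was well above background only on Atm-/- veh 2 and Atm-/- veh 3, which were also the 2 highest Atm-/- arrays for the brighter one.

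Ltbp1 encodes a latent TGF-beta binding protein that anchors the latent growth factor to fibrillin. It read 7.43, 7.71, 7.84 and 7.98 in WT veh and 7.10, 7.98, 7.61 and 7.46 in WT NR. Among Atm-/- mice the values were 7.16, 7.45, 7.17 and 7.40 with vehicle and 7.57, 7.79, 7.46 and 7.22 with NR. Of the 4 WT veh arrays, 3 lay above every Atm-/- veh array, with a mean difference of -0.45. It was the member furthest above 0 with NR in Atm-/- mice, by 0.22 ± 0.18 (limma, adjusted p = 0.456), and lay 0.20 lower with NR in wild type mice, which turned to 0.06 higher without the arrays that lacked Y-linked signal.

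**Figure D2:**
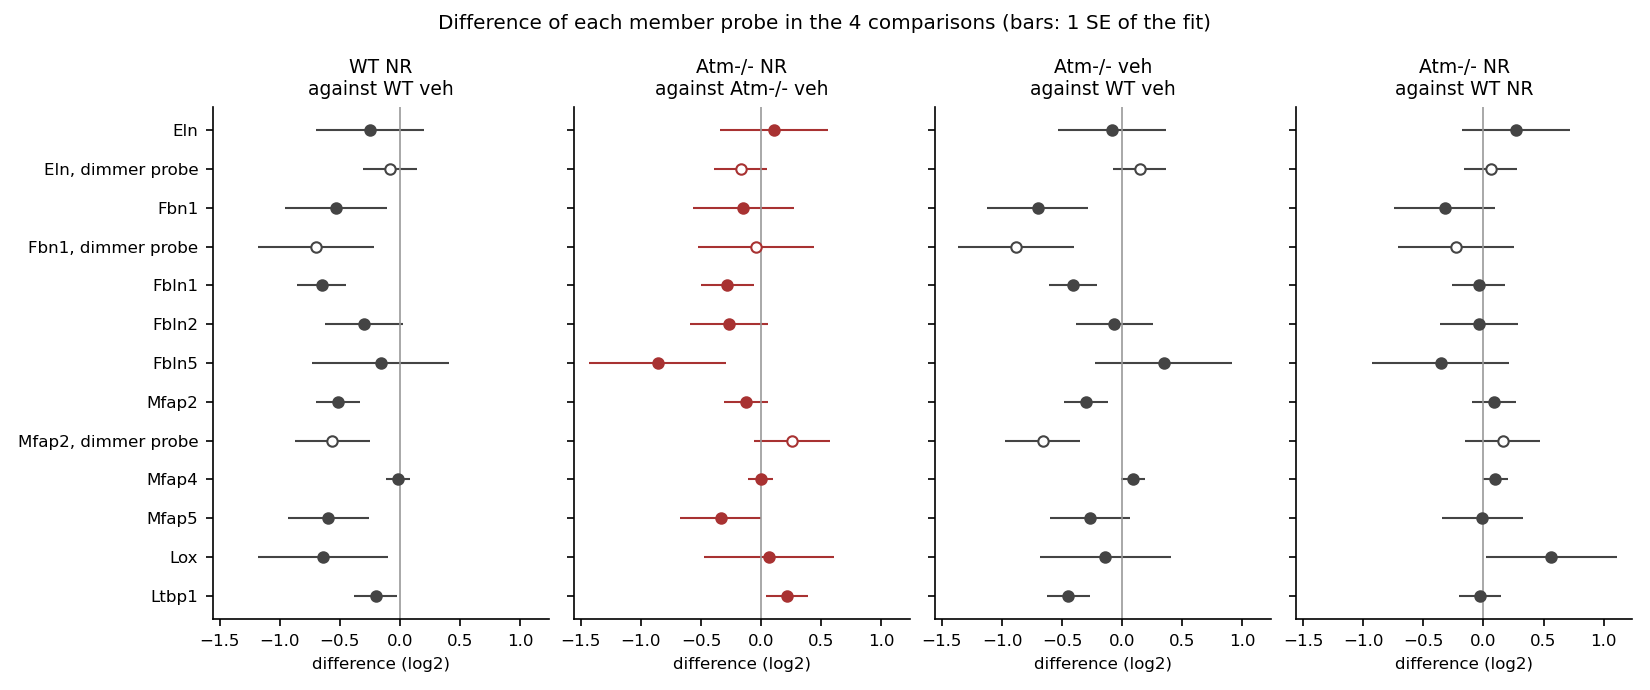
Difference of each member probe (log2, horizontal axes; bars 1 SE of the fit; open circles the dimmer probe of a gene) in the 4 comparisons, with the tested one in red. In WT NR against WT veh, which chose the members, every point lies below 0; in Atm-/- NR against Atm-/- veh the points lie on both sides, from -0.86 (Fbln5) to 0.26 (the dimmer Mfap2 probe).

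Several members varied more between arrays of a group than most probes did. The median SD within groups over all kept probes was 0.23 on the log2 scale. Fbln5 (0.87), Lox (0.83), Fbn1 (0.64) and Eln (0.68) lay at or above the 92nd percentile of it for their brighter probes, Mfap5 (0.50) and Fbln2 (0.49) at the 86th and 85th, and Mfap4 (0.14) at the 23rd. Ltbp1 (0.26) and the brighter Mfap2 probe (0.27) were close to the middle.

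Deviations of several members went together from array to array. The deviations of each gene from its group means were correlated for 36 pairs of genes and 3 pairs of probes of a gene. The 16 arrays include the WT arrays on which the set was chosen, and choosing genes by those arrays can itself make them go together, so the correlations are a description with no test. Over 16 arrays Pearson's r was above 0 for 28 of the 36 gene pairs, with a median of 0.30 and a range from -0.18 (Lox with Ltbp1) to 0.78 (Fbn1 with Fbln2). Over the 8 Atm-/- arrays alone, which had no part in the choice, it was above 0 for 28 of 36 with a median of 0.48, or 32 of 36 with a median of 0.49 without Atm-/- veh 3. Arrays of a slide share their hybridisation, and array-wide differences in signal enter every pair.

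Fbn1 and Fbln2 gave r = 0.78 and Spearman's rho = 0.85 over 16 arrays, r = 0.72 without WT veh 4 and Atm-/- NR 4, the arrays furthest from the median of Fbn1, and r = 0.94 over the 8 Atm-/- arrays. Eln and Fbn1, the core and the scaffold of the fibre, gave r = 0.74 and rho = 0.75, r = 0.71 without Atm-/- veh 3 and Atm-/- NR 4, and r = 0.66 over the Atm-/- arrays. Fbln5 and Lox gave r = 0.63 and rho = 0.57, and r = 0.76 over the Atm-/- arrays, or 0.61 there without Atm-/- veh 3. These pairs were named after their values were seen. Others with r above that of Fbln5 and Lox were Eln with Fbln5 (0.71), Fbn1 with Mfap2 (0.71) and Fbln2 with Mfap2 (0.64). Probes of a gene went together to different degrees: r was 0.88 for the 2 Fbn1 probes, 0.70 for those of Eln and 0.23 for those of Mfap2.

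**Figure D3:**
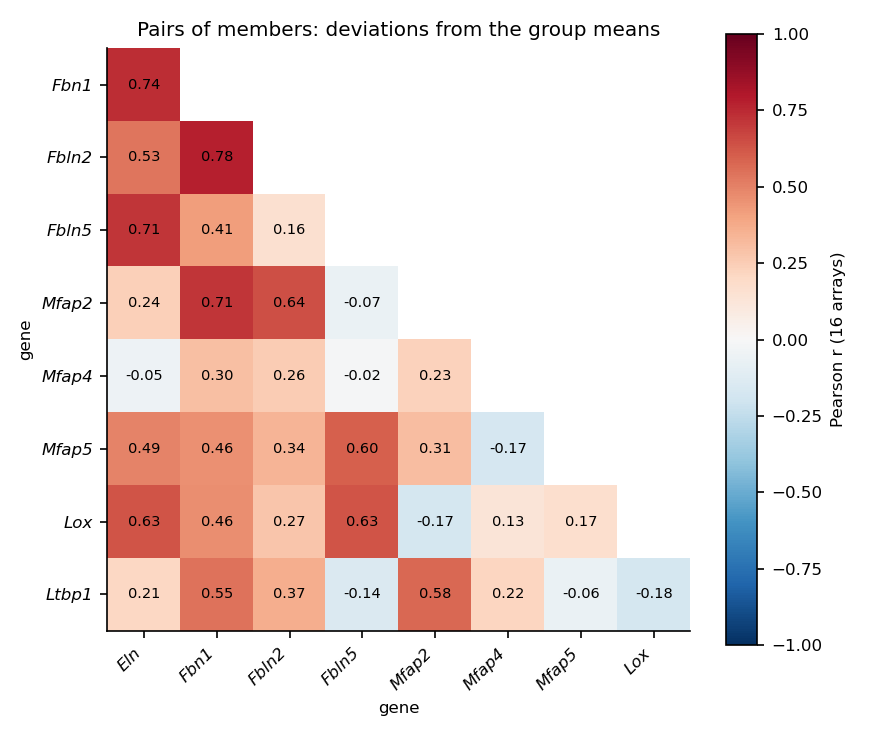
Pearson's r over 16 arrays (colour and printed value) between the deviations of pairs of members from their group means; both axes are genes. The highest value is 0.78 (Fbn1 with Fbln2), and Mfap4 is between -0.17 and 0.30 with every other member.

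The level of the set on an array, the mean over 9 genes of the log2 signal minus each gene's mean over 16 arrays, was highest on Atm-/- veh 3 (0.71), WT veh 4 (0.63) and WT veh 1 (0.47) and lowest on Atm-/- NR 4 (-0.55). In wild type mice it ran from -0.19 to 0.63 with vehicle and from -0.42 to 0.02 with NR. In Atm-/- mice it ran from -0.32 to 0.71 and from -0.55 to 0.22, and all 4 groups overlapped. Among genes outside the set, the 6 whose levels followed it most closely over the 16 arrays were Tes (Pearson's r = 0.89), Socs3 (0.88), Timp3 (0.87), Rbp4 (0.87), Slc25a24 (0.87) and Ccn2 (0.86). Timp3 encodes an inhibitor of metalloproteinases held in the matrix, Ccn2 a matricellular protein, Socs3 a brake on cytokine signalling and Rbp4 the carrier of retinol. They were picked for this likeness from all named genes, and without Atm-/- veh 3 and WT veh 4 their r ran from 0.71 (Socs3) to 0.79 (Ccn2).

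Markers of fibroblasts also lay lower with NR in wild type mice. All 10 markers of meningeal and perivascular fibroblasts were below 0 in WT NR against WT veh (median -0.39), 2 of them with groups that did not overlap (Igf2, -0.79, and Ogn, -0.72, named after their values were seen), beside 2.49% of all probes. Their list level was 0.074 to 0.572 in WT veh and -0.39 to 0.071 in WT NR, so every WT NR array lay below every WT veh array by a narrow margin. The 2 lowest WT NR arrays, WT NR 4 (-0.39) and WT NR 1 (-0.21), were those that showed Xist. The summed linear signal of the markers was 25193 to 49508 and 18953 to 24459. In Atm-/- veh against WT veh, 8 of 10 markers lay below 0 as well (median -0.36). In the Atm-/- groups the level was -0.23 to 0.17 with vehicle and -0.44 to 0.61 with NR, and 4 of 10 markers lay below 0 with NR (median 0.06). The summed signal there was 19882 to 29549 and 18615 to 33032. Every marker of the list was well above background on all 16 arrays, and Dcn, the brightest, was highest on WT veh 4 (14.76, beside 12.70 to 13.51 elsewhere). Their part in the result was not tested.

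Of the 6 pericyte markers, 4 lay below 0 in WT NR against WT veh (median -0.17), while Abcc9 (0.06) and Kcnj8 (0.11) lay above. Their list level was 0.09 to 0.18 in WT veh and -0.07 to -0.04 in WT NR, which did not overlap (summed signal 22823 to 26848 and 21446 to 21844). Such separation downward was seen for 2.49% of all single probes. In Atm-/- veh their level was 0.0020 to 0.33 and in Atm-/- NR -0.29 to -0.03 (summed signal 21712 to 28371 and 17797 to 24341), again without overlap. Lack of overlap between these Atm-/- groups was common, at 20.2% of all single probes in either direction, and 1 of the 6 markers showed it. In that comparison 1 of the 6, Pdgfrb, was called lower by limma (-0.45, adjusted p = 0.0188), beside 4.48% of all probes. Pdgfrb was named after its value was seen. Kcnj8 of the same list was at 0.35 there (adjusted p = 0.104). The 6 were detected on all 16 arrays, and the brightest, Vtn, also counts among the pathway genes below. Highest for this list was Atm-/- veh 3 (0.33), which was highest for the members too. Vascular smooth muscle markers did not follow: 2 of 5 were below 0 with NR in wild type mice (median 0.09) and 1 of 5 in Atm-/- mice (median 0.61), with none called. The part of these cells in the members' levels was not tested.

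Choroid plexus markers (6 measured of 7) were all below 0 in WT NR against WT veh, with a median of -0.87. Their list level was 4.86 on WT veh 4, beside 0.64, -0.68 and -0.92 on WT veh 1, 2 and 3. In WT NR it ran from -0.56 to 0.65, so apart from WT veh 4 no WT veh array lay above that range. Their summed signal reached 304534 on WT veh 4, the highest WT veh array, beside 2510 on the lowest. With NR in wild type mice it ran from 3627 to 10257, and in Atm-/- mice from 2132 to 8926 with vehicle and from 2653 to 4045 with NR, and 1 of the 6 was not detected on every array. Ttr, the transthyretin gene, read 18.05 on WT veh 4 and 7.13 to 12.62 on the other arrays. That array is also the highest for Fbn1, Fbln2 and the brighter Mfap2 probe, and the values without it stand beside those genes above. Median differences with NR in wild type and in Atm-/- mice were -0.34 and 1.41 for ependyma (5 genes), 0.01 and -0.22 for endothelium (7), 0.05 and 0.02 for Purkinje cells (6), 0.01 and -0.10 for granule cells (6), 0.03 and -0.03 for Bergmann glia and astrocytes (6), 0.35 and -0.03 for oligodendrocytes (5), and -1.5e-05 and 0.12 for microglia (5 of 6).

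**Figure D4:**
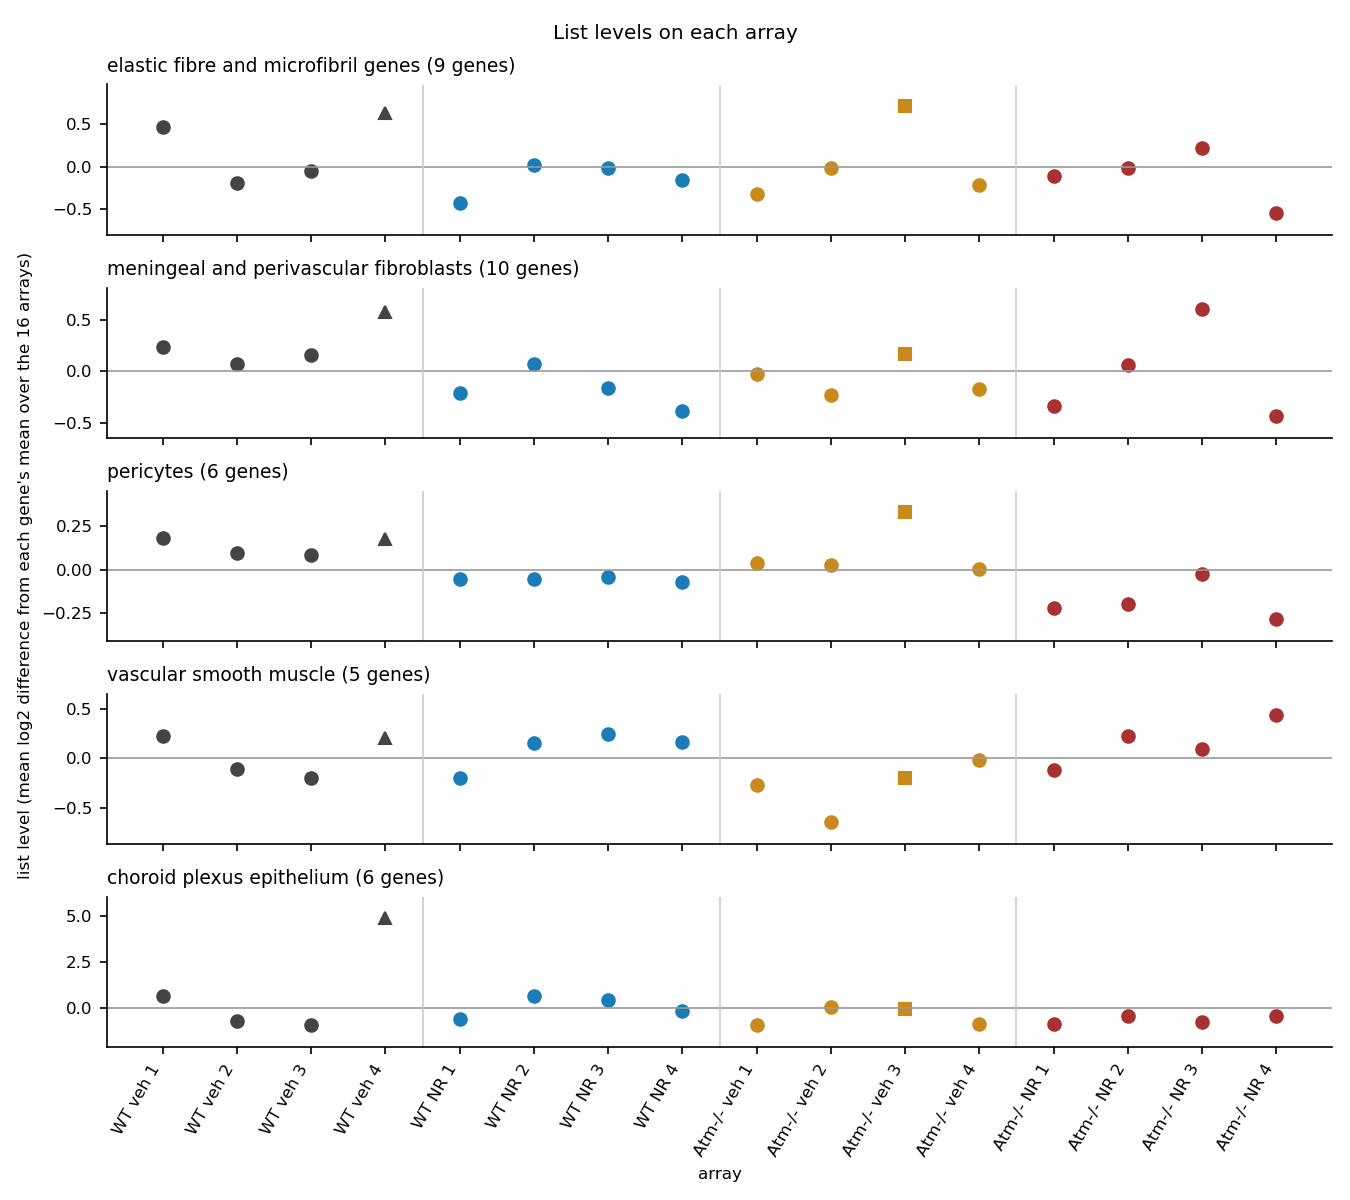
List level on each of the 16 arrays (vertical axes, mean log2 difference from each gene's mean over all arrays) for the members and 4 lists of cell type markers; triangle WT veh 4, square Atm-/- veh 3. The members and the fibroblast list are both second highest on WT veh 4 (0.63 and 0.57), with their highest values on Atm-/- veh 3 (0.71) and Atm-/- NR 3 (0.61). The pericyte list is highest on Atm-/- veh 3, and the choroid plexus list stands out on WT veh 4 alone (4.86).

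Other genes of the pathway were read from a list of 47 in 6 role groups, of which 39 were measured. In Atm-/- NR against Atm-/- veh, 2 passed the test as lower (4.48% of all probes did), 1 as higher (4.56%), and 13 of 39 reached an unadjusted p under 0.05, beside 27.3% of all probes. Their median difference was -0.09, beside 0.04 over all named genes. In WT NR against WT veh, 25 of the 39 lay below 0 (53.2% of all probes), with a median of -0.10. The counts of pathway genes called in Atm-/- mice lie near the shares over all probes and are no result about the pathway as a whole. The genes that passed were Tgfb1, Ltbp3 and Ctsk, which encode a growth factor, a latent TGF-beta binding protein and a protease. Their Atm-/- groups did not overlap, which held for 20.2% of all probes in either direction. Every WT NR array lay below every WT veh array for 2.49% of all probes.

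Tgfb1 encodes the growth factor TGF-beta 1, kept latent in the matrix by the binding proteins. Its brighter probe read 7.89, 7.88, 7.71 and 7.69 in Atm-/- veh and 6.84, 7.28, 7.12 and 6.65 in Atm-/- NR. All NR arrays lay below all vehicle arrays, with a difference of -0.82 ± 0.15, or 1.77-fold lower (limma, adjusted p = 0.00943). In WT mice it read 7.68, 7.68, 7.42 and 7.41 with vehicle and 7.11, 6.68, 6.83 and 7.25 with NR, also without overlap, at -0.58. The dimmer Tgfb1 probe gave -0.64 (adjusted p = 0.311) and -0.02.

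Ltbp3 encodes a binding protein of the same family as Ltbp1. Its brighter probe read 13.04, 13.05, 12.85 and 13.08 in Atm-/- veh and 12.71, 12.45, 12.49 and 12.59 in Atm-/- NR. These did not overlap, and the difference was -0.45 ± 0.08, or 1.36-fold lower (limma, adjusted p = 0.0113). In wild type mice the levels were 13.21, 12.88, 13.02 and 13.01 with vehicle and 12.74, 12.73, 12.63 and 12.67 with NR, apart as well, at -0.34. The other Ltbp3 probe gave -0.33 (adjusted p = 0.150) and -0.29, the same direction. Ltbp2 (-0.55, adjusted p = 0.138) and Ltbp4 (-0.17, adjusted p = 0.503), which did not pass, were also below 0 in the Atm-/- comparison, while the member Ltbp1 was at 0.22. Without the arrays that lacked Y-linked signal, Ltbp3 gave -0.51 with an adjusted p of 0.0507 (limma). The brighter Tgfb1 probe remained past the threshold under each of 27 alternatives (limma, adjusted p from 0.00559 to 0.0438). These did not include the mean over the probes of a gene or the methods' t-test.

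Ctsk encodes cathepsin K, a protease that can cut elastin and collagen. It read 9.60, 9.62, 9.32 and 9.44 in Atm-/- veh and 9.89, 10.15, 10.21 and 9.86 in Atm-/- NR, without overlap. The difference was 0.53 ± 0.13, or 1.45-fold higher (limma, adjusted p = 0.0283), and it did not pass under 6 of the same 27 alternatives. In wild type mice the levels were 9.75 to 10.32 with vehicle and 9.81 to 10.27 with NR, so the Atm-/- veh arrays were those that lay apart. Other elastin-cutting proteases gave 0.34 for Mmp2 (adjusted p = 0.713), -0.28 for Mmp9 (0.598) and 0.14 for Elane (0.642).

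The remaining role groups held no called gene. Among other fibrillins, fibulins and microfibril proteins, 12 of 15 were measured, 8 of them below 0. The greatest difference there was that of Adamts10 (-0.70, limma, adjusted p = 0.0817), a secreted metalloprotease that binds fibrillin-1. Both of its probes read lower on every NR array than on every vehicle array in Atm-/- mice. Over all probes, 20.2% separated these groups in either direction. Loxl2 (0.26, adjusted p = 0.188) led the 2 measured other lysyl oxidases, Gdf5 (0.86, adjusted p = 0.141) was the growth factor furthest above 0, and Itga5 (-0.73, adjusted p = 0.192) the integrin subunit furthest below. Levels of Gdf5 with NR ran from 6.76 to 7.17 in Atm-/- mice, beside 5.75 to 6.76 with vehicle, which touched at 1 array.

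**Figure D5:**
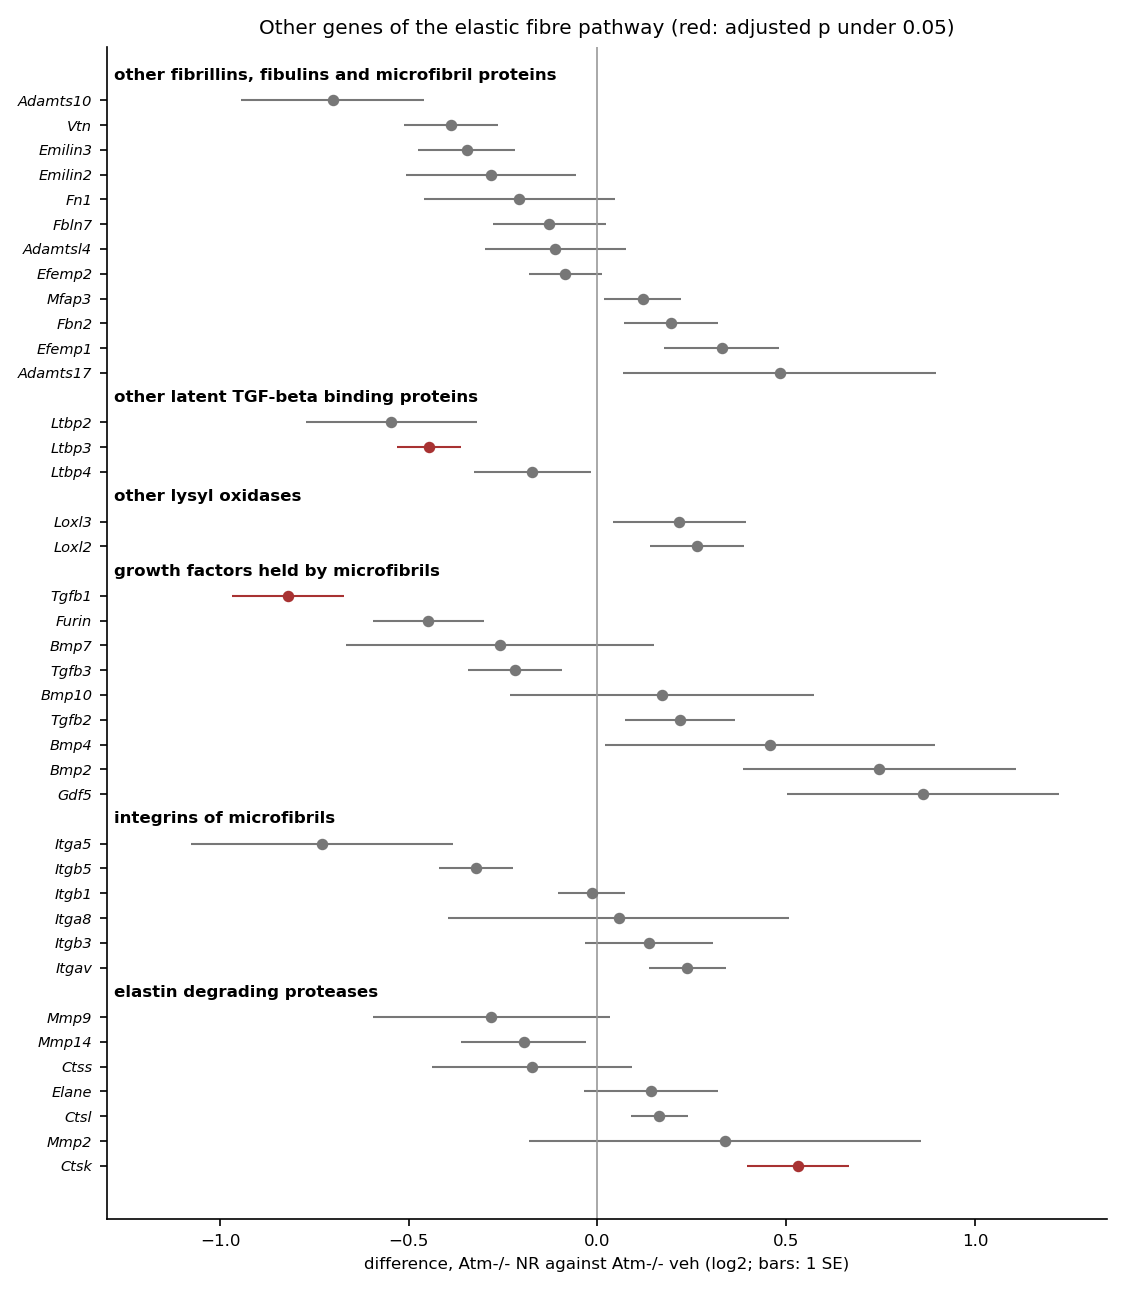
Difference between Atm-/- NR and Atm-/- veh (log2, horizontal axis; bars 1 SE) for the 39 measured pathway genes in 6 role groups. Red points passed the test: Tgfb1 (-0.82) and Ltbp3 (-0.45) lie to the left and Ctsk (0.53) to the right.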

How the data were processed

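Cerebellar RNA of 16 mice, 4 in each group, was measured on 1-colour Agilent arrays. The deposited spot intensity, per the file headers, is the processed signal of Agilent Feature Extraction 12.0.3.1, background-subtracted by the software the authors used. The authors also deposited a score for each probe, a quantile normalized z-score of log signal within each array, used here as an alternative only. Samples were grouped by their labels, and p-values measure the spread between these 4 samples a group, whose number limits the precision.

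Outlier-marked spots were set aside, spots of a probe were averaged, and intensity was log2 transformed and quantile normalized. Detection on an array required a share of at least 0.5 of a probe's spots to be well above background, and a probe was kept if detected on all 4 arrays of a group and present on all 16. A gene was read from its brightest kept probe. Differences came from limma 3.58.1 (R 4.3.3) over all kept probes and 4 groups, with Benjamini-Hochberg adjusted p under 0.05 as the call.

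The members and gene lists were chosen with earlier results of these data known. Among the members, only the difference between Atm-/- NR and Atm-/- veh was tested, since its means use none of the WT arrays behind that choice. Its error does pool the spread of the WT arrays, and a fit on the 8 Atm-/- arrays alone was an alternative. Atm itself was tested between genotypes as a check of the labels. All members were named, as were pathway genes that passed the test or led their role group, and the 6 genes most like the set over all arrays. Names and promoters came from RefSeq (GRCm38.p6), with no coordinates taken for probes. The fit was tested on simulated data. Alternatives were 75th percentile scaling, normexp (offset 50), the z-scores, other filters, a trend, the methods' t-test, a replicate block and leaving out arrays. That t-test was read by its p or adjusted p alone, without the other limits of the study's rule.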

Additional observations from a re-analysis of the deposited data

Results flagged for a closer look

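Fbln5 on Atm-/- veh 3 read 13.33 on the log2 scale, far from the other arrays of its group, the nearest of which was at 10.36. The gap was 0.87 of the range of that group. It was the only 1 flagged of 56 groups of 4 arrays examined over the member probes and the level of the set. Chance flags about 1 in 20, or 2.8 of the 56, so a single flag is no more than chance gives. The Atm-/- veh 3 array lacked the signal of Y-linked genes that its label implies, and was also the highest array for Eln and Mfap5. Whether these go with the Fbln5 value was not tested.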

How the results depend on the processing

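No member was called under any alternative. The median difference of the members between Atm-/- NR and Atm-/- veh (-0.13) ran from -0.22 (without Atm-/- NR 3) to -0.0011 (without Atm-/- NR 4) when 1 array was left out and from -0.19 to 0.15 otherwise. In wild type mice (-0.30) it ran from -0.53 (without WT veh 2) to -0.13 (without WT veh 4), and from -0.41 to -0.12. Between Atm-/- veh and WT veh (-0.14) it ran from -0.47 (without Atm-/- veh 3) to 0.0022 (without Atm-/- veh 1), and between Atm-/- NR and WT NR (-0.0077) from -0.058 to 0.11.

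Signs near 0 turned for single members in Atm-/- NR against Atm-/- veh, and the cause was not tested. Eln went to -0.050 with 75th percentile scaling, -0.25 with only probes detected on all 16 arrays and -0.032 as a mean over its probes. Lox went to -0.10 with that scaling, -0.021 with the z-scores, -0.012 without the filter and -0.084 with probes detected everywhere. Mfap2 went to 0.065 as a mean over its probes. Fbln1 went from -0.28 to 0.52 with its outlier-marked spot kept. With only arrays that had Y-linked signal, Fbln5 went to 0.038, Fbn1 to 0.34 and Mfap5 to 0.15, while Eln and Lox kept their sign and rose to 0.81 and 0.61. With 1 array left out, Eln ran from -0.14 to 0.54, Fbn1 from -0.37 to 0.17, Lox from -0.30 to 0.44 and Mfap4 from -0.052 to 0.089.

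Pathway genes called numbered 3, and 5 with normexp, 6 with a trend and 1 with only arrays that had Y-linked signal. The methods' t-test gave 11 at an unadjusted p of at most 0.05, and 5 after adjustment. Neither count follows the study's full rule, whose other limits were not applied. With 1 array left out, the number of pathway genes called ran from 2 to 7 (without WT veh 4). Ctsk did not pass without Atm-/- veh 1, 3 or 4, without Atm-/- NR 2 or 3, or with only arrays that had Y-linked signal. Its adjusted p by limma ran from 0.0162 to 0.0896 over the 27 alternatives read for it. Calls over all probes (3366) fell to 438 with only those arrays, and ran from 862 (without Atm-/- veh 1) to 4405 (without WT veh 4).

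By the rule that every pair exceed 0.1, replicate numbers did not pair the arrays: deviations of same-numbered arrays correlated from -0.099 to 0.161 in Atm-/- mice from -0.148 to -0.052 in wild type mice, from -0.151 to 0.194 between Atm-/- veh and WT veh, and from 0.049 to 0.195, above 0 for all 4 numbers, between Atm-/- NR and WT NR. With a replicate block the medians were again -0.13, -0.30, -0.14 and -0.0077, the pathway calls 3, the member calls 0 and the calls over all probes 3140. A block for slide could not be fitted, since each slide holds 1 genotype, and was not run. Keeping outlier-marked spots and probes with a missing array, both chosen after seeing the data, called 0 members. A fit on the 8 Atm-/- arrays alone called 0 members, 4 pathway genes and 2521 probes.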

Other observations

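The dimmer Lox probe, below the filter, was well above background on Atm-/- veh 2 and Atm-/- veh 3 and on none of the other 14 arrays, and its 16 values ran from 2.24 to 6.20 on the log2 scale.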
